A study of Mus musculus with 3 samples.

Results

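The Notch genes described here are 3 receptors (Notch1, Notch2, Notch3), 3 ligands (Jag1, Jag2, Dll1), the receptor-modifying enzyme gene Lfng and 3 transcriptional targets (Hes1, Hey1, Heyl). They were taken by name: every probe set whose single gene symbol in the platform annotation was one of the 10 was kept. This gave 19 probe sets of the 45101 on the array, for 10 of 18193 genes with a symbol. RNA came from dental papillae, the mesenchyme inside each tooth germ from which dentin-forming odontoblasts and pulp arise. The mice were of the ICR strain, at embryonic day 16 (E16), at embryonic day 18 (E18) and at postnatal day 3 (P3). No treatment or altered allele is named for any stage. Papillae were separated with enzymes from the first molars of the mandible, and each RNA was a pool of over 20 of them. Each stage had 1 array, so no test between stages is possible, and every difference given is one between single pooled samples.

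Notch signalling passes between touching cells. A Jagged or Delta ligand on one cell binds a Notch receptor on its neighbour, the receptor is cut by an ADAM protease and then by gamma-secretase, and its freed intracellular part enters the nucleus, binds RBPJ and switches on Hes and Hey genes. These encode repressors that often hold back differentiation. In teeth the pathway is known from both the dental epithelium and the mesenchyme and from the response of the pulp to injury. Notch3 and Heyl are also known from pericytes and smooth muscle around vessels, Notch1 and Hey1 from endothelium, and Jag2 and Lfng from epithelium.

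Of the 10 genes, 4 exceeded their E16 signal by 2-fold or more at P3, against 6.57% of 12192 genes: Dll1, Hey1, Notch3 and Heyl. In all 4 the signal at E18 was within 1.17-fold of that at E16, and the step lay between E18 and P3. Jag2 was lower at P3 by 2.79-fold. Hes1 took another course, with its highest signal at E18, and Lfng was highest at E16. By their brightest probe sets, Notch1, Notch2 and Jag1 stayed within 2-fold between each pair of stages.

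The values are signals recovered from the deposited ratios. A ratio between stages for 1 probe set does not depend on that recovery, whereas the level is a lower limit. The floor and the choice of 1 probe set per gene, described next, and the marker sums rest on levels of different probe sets. They carry this limit. Signals under 82.0, the median of all signals, were set to this floor before log2. A gene is represented by the probe set with the highest mean signal, called the brightest. For 10 of 10 genes the brightest probe set reached the floor on each of the 3 arrays. Of the 19 probe sets, 4 were under the floor on every array and give no difference. As the only look at error, 2 probe sets of 1 gene differed in their log2 difference between P3 and E16 by a median of 0.53, and by up to 1.36 in 90% of 2549 genes. That gap misses any error that a whole sample or array shares.

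The label of the tissue was set against markers. All 8 papilla mesenchyme genes were at or above the floor on each array, and their summed signal was 12459 at E16, 3897 at E18 and 4597 at P3. The 6 odontoblast genes summed to 1296, 9637 and 37686. Epithelial keratin and junction genes, which are not of the papilla, were also present: 10 of 10 at E16 and at E18 and 9 of 10 at P3 were at or above the floor. For the 18 probe sets of spikes added at hybridisation, the median ratio to the E16 array was 2.17 at E18 and 1.04 at P3. The actin 3' over 5' ratio was 3.87 times as high at E18 and 2.46 times at P3 as at E16, whereas that of Gapdh was 1.42 and 0.355 times, opposite to actin at P3. The part of these array differences in the values below was not tested.

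**Figure D1:**
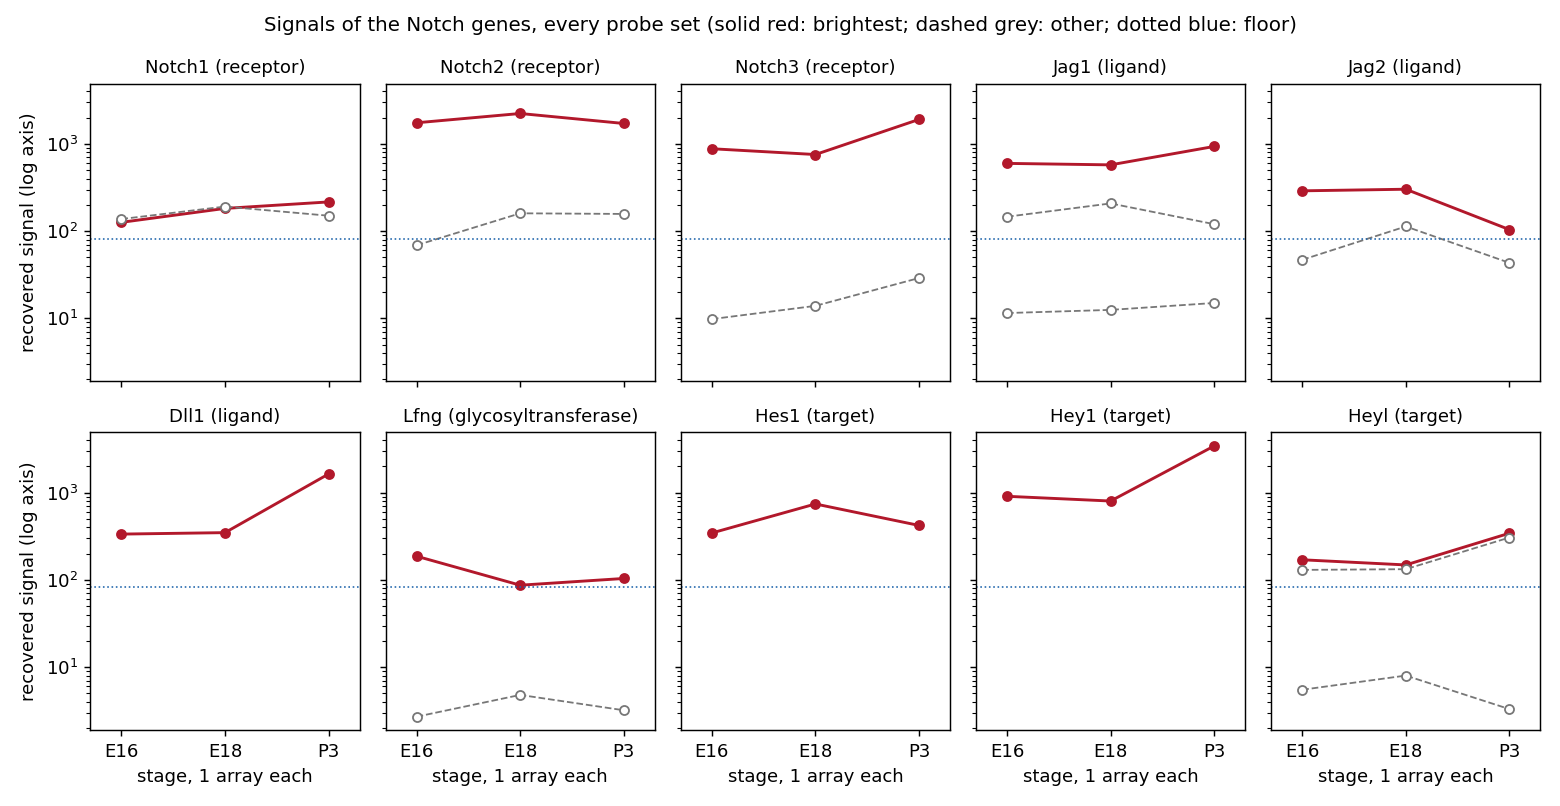
Recovered signal on a log axis at each stage for all 19 probe sets of the 10 genes, with 1 array per point. Solid red lines are the brightest probe sets, dashed grey lines the others, and the dotted line is the floor of 82.0. Dll1, Hey1, Notch3 and Heyl are flat from E16 to E18 and higher at P3, Hes1 peaks at E18, and Jag2 is lowest at P3.

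Among the receptors, Notch3 differed most. Its brightest probe set, 1421965_s_at, read 881.2 at E16, 756.3 at E18 and 1910.9 at P3. The P3 signal was thus 2.17-fold that at E16 and 2.53-fold that at E18. Its log2 difference of 1.34 from E18 to P3 was above the gap of 1.22 that held 90% of probe set pairs in that comparison, but the 1.12 from E16 to P3 was below the corresponding 1.36. The other Notch3 probe set, 1421964_at, read 9.8, 13.9 and 29.0, all under the floor, so it gives no fold. The suffix of the brighter one means that it can detect more than 1 transcript, and no other Notch3 probe set was measured.

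Notch1, which in teeth is known from the cell layer beside the ameloblasts, read 126.2, 182.3 and 216.3 at E16, E18 and P3 by 1418634_at. By 1418633_at it read 137.6, 191.4 and 150.3. Both probe sets were higher at E18 than at E16, by 1.44-fold and 1.39-fold. They parted after that, so that P3 was 1.71-fold above E16 by the first and 1.09-fold by the second. The gap of 0.65 between them in log2 was larger than the median of 0.53 for such pairs.

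Notch2 read 1749.2 at E16, 2234.9 at E18 and 1716.9 at P3 by 1455556_at, a span of 1.30-fold. Its log2 difference from E16 to P3 was -0.03, which became 0.31 after quantile normalization and so has no settled direction. By 1451889_at Notch2 read 68.9, 160.2 and 157.5. With E16 under the floor, that probe set put E18 at least 1.95-fold and P3 at least 1.92-fold higher than E16, while E18 and P3 were 1.02-fold apart. By the brightest probe sets, Notch3 alone of the receptors passed 2-fold.

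Dll1, a Delta ligand, had the widest range of all 10 genes. Its single probe set, 1419204_at, read 335.4 at E16, 348.6 at E18 and 1641.1 at P3. The 2 embryonic arrays were 1.04-fold apart, and P3 was 4.89-fold above E16 and 4.71-fold above E18. From E18 to P3 its log2 difference of 2.24 ranked 50 from the highest among 12115 genes. With a single probe set, there is no second reading of this gene on the arrays.

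The promoter sequences of Dll1 and Notch3 are shown because both genes were higher at P3, and that of Lfng because it alone of the members listed held the letters searched. They are from RefSeq (GRCm38.p6) and run over the 250 bases before the start site, 5' to 3' on the strand of the gene. Dll1 had 2 listed start sites, of which the one farther upstream is shown. Searched on both strands were TGGGAA, the core of the site that RBPJ binds, and CACGTG, an E-box of the kind that Hey proteins can bind. Capitals mark matches.

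Notch3, chr17:32166891-32167140, minus strand: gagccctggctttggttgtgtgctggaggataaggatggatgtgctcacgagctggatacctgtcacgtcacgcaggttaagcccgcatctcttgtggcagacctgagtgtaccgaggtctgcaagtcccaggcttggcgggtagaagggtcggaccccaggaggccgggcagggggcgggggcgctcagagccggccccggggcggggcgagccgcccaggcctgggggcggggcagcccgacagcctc

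Dll1, chr17:15376933-15377182, minus strand: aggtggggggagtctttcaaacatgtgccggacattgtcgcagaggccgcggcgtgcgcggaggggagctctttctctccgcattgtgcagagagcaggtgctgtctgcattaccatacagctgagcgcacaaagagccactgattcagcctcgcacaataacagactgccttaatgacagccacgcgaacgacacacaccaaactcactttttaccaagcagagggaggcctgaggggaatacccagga

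Lfng, chr5:140607091-140607340, plus strand: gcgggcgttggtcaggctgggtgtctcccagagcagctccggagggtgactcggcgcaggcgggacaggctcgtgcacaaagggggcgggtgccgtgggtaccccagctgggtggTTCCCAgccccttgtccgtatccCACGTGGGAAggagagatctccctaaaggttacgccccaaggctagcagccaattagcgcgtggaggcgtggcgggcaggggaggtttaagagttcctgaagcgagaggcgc

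The table of promoters held 7 of the 10 members (Notch1, Notch2, Notch3, Jag1, Jag2, Dll1, Lfng). Of these, Lfng alone had a match. Its 250 bases held the RBPJ core in both orientations, starting 135 and 108 bases before the start site, and 1 E-box starting 112 bases before it, whose last bases are also the first of the nearer core. In all, 21.6% of 32851 promoters of the same length held TGGGAA or its reverse complement, and 6.0% held CACGTG. A match describes letters in this window and shows no binding.

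Jag1 and Jag2, the Jagged ligands, differed from Dll1. Jag2 read 290.0, 302.5 and 104.1 at E16, E18 and P3 by 1426430_at. Its signal at P3 was 2.91-fold below E18 and 2.79-fold below E16, and these log2 differences of -1.54 and -1.48 were larger in size than the 90% gaps of 1.22 and 1.36. By 1426431_at Jag2 read 46.9, 113.2 and 43.3. There E18 was at least 1.38-fold above both other stages, so both probe sets put P3 below E18. Both were highest at E18, the first by 1.04-fold over E16.

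Jag1 read 598.5, 575.7 and 936.3 by 1434070_at, which put P3 1.56-fold above E16. By 1421106_at it read 146.3, 207.9 and 120.2, which put P3 1.22-fold below E16. From E18 to P3 the probe sets were 1.49 apart in log2, beyond the gap that held 90% of pairs. The third, 1421105_at, stayed between 11.5 and 15.0, under the floor. No direction can be given for Jag1 from these probe sets.

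Lfng encodes Lunatic fringe, a glycosyltransferase that lengthens sugars on Notch and shifts its response from Jagged towards Delta ligands. It read 187.0 at E16, 87.0 at E18 and 103.9 at P3 by 1420643_at. E18 was 2.15-fold and P3 1.80-fold below E16, and both later signals were close to the floor of 82.0. The difference at E18 passed 2-fold by a narrow margin: it became -0.98 in log2 when the median difference of probe sets at or above the floor was set to 0. The other probe set, 1449943_at, read 2.7, 4.8 and 3.2, which is under the floor.

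Among the targets, Hey1 and Heyl were higher at P3 and Hes1 was not. Hey1, which encodes a repressor of the Hairy family, read 910.1 at E16, 803.3 at E18 and 3439.7 at P3 by its single probe set, 1415999_at. P3 was 3.78-fold above E16 and 4.28-fold above E18, the latter ranking 59 from the highest of 12115 genes. The embryonic arrays were 1.13-fold apart.

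Heyl, a close relative of Hey1, read 170.2, 148.6 and 343.3 by 1438886_at and 130.3, 132.8 and 306.4 by 1419302_at. Both probe sets put P3 2.31-fold above E18, and they put it 2.02-fold and 2.35-fold above E16. Heyl is the one member past 2-fold that 2 measured probe sets both placed there. Its log2 difference of 1.21 from E18 to P3 was just under the 90% gap of 1.22. The third, 1419303_at, read 3.3 to 8.0, under the floor.

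Hes1 read 345.3 at E16, 743.2 at E18 and 421.7 at P3 by 1418102_at, its single probe set. E18 was 2.15-fold above E16, and P3 was 1.76-fold below E18 and 1.22-fold above E16. Its log2 difference of 1.11 between E16 and E18 lay under the gap of 1.38 that held 90% of probe set pairs in that comparison. Hes1 was therefore high on the E18 array alone, where Hey1 and Heyl were at their lowest by their brightest probe sets.

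**Figure D2:**
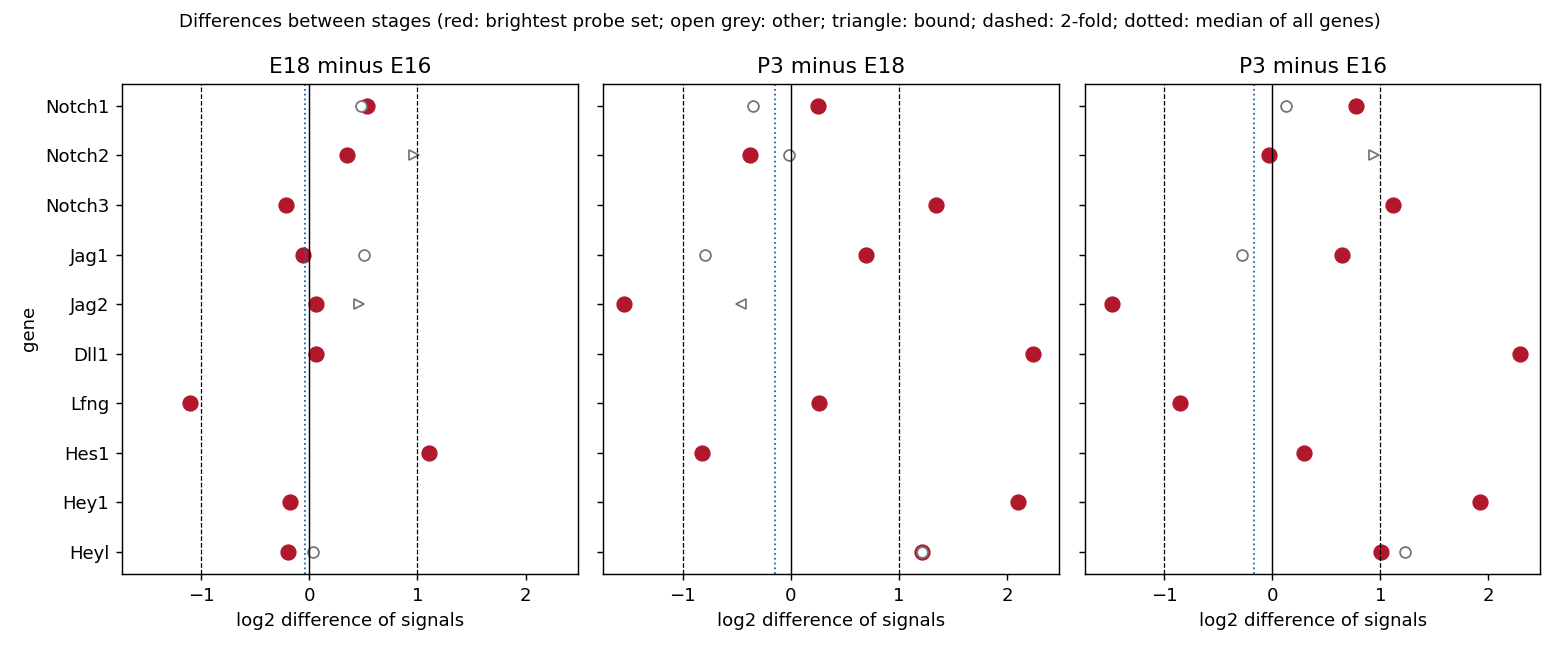
Log2 difference of signals for each gene in the 3 comparisons. Filled red points are the brightest probe sets, open grey ones the others, triangles are bounds with 1 array under the floor, dashed lines mark 2-fold and the dotted line the median of all genes. Dll1, Hey1, Notch3 and Heyl lie beyond 2-fold in both comparisons with P3, Jag2 lies beyond it on the lower side, and the probe sets of Jag1 fall on opposite sides of 0 in all 3.

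From E16 to P3, 4 of the 10 genes were higher by 2-fold or more and 1, Jag2, was lower. Over all 12192 genes measured, 6.57% were higher and 15.6% lower. The median log2 difference was 0.71 for the 10 genes and -0.17 for all genes. The members were chosen by name with earlier results known, and nothing is read from this contrast beyond the counts. Of all genes past 2-fold, 29.6% were higher as deposited, but 48.9% after quantile normalization, where the all-gene median was 0.02. The members' median became 0.98, and 5 were higher and 1 lower, the added one being Jag1 at 1.05 by its brightest probe set. Over all genes under that normalization, 1229 were higher and 1283 lower of 12188. Relative to the median of all genes as deposited, the log2 differences were 2.46 for Dll1, 2.09 for Hey1, 1.29 for Notch3, 1.18 for Heyl and -1.31 for Jag2.

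From E18 to P3 the same 4 genes were higher and Jag2 lower, against 4.08% higher and 11.8% lower of 12115 genes. These comparisons share the P3 array, so they are not independent readings. The median was 0.48 for the members and -0.15 for all genes. Of all genes past 2-fold, 25.7% were higher as deposited and 47.8% after quantile normalization. From E16 to E18, Hes1 alone of the 10 was higher by 2-fold or more and Lfng alone lower, against 8.10% and 8.14% of 12034 genes. A share of 1 in 10 is near that background. The members' median was 0.00 and that of all genes -0.04. The P3 against E16 comparison does not use the E18 array, on which the spikes read higher, whereas both comparisons with E18 do. P3 and E16 also differed in the 3' over 5' ratios, at 2.46 times for actin and 0.355 times for Gapdh. The part of these array differences in the counts was not tested.

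Dll1, as the member with the widest range, was set beside other genes by the distance between their 2 step differences (log2, E18 minus E16 and P3 minus E18) over 3 arrays. Nearest among 9861 genes measured on all arrays were the myosin gene Myo16 (distance 0.198), the exchange factor gene Arhgef6 (0.204) and the lysozyme gene Lyz1 (0.204). Myo16 read 83.4, 83.0 and 342.9, Arhgef6 120.6, 122.0 and 500.0, and Lyz1 220.4, 263.9 and 1236.3. Lyz1 has a near-identical copy, Lyz2, and the probe set may read both.

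Other genes of the pathway went both ways. The list held 44 genes with a probe set under a single symbol, each counted by its brightest probe set. From E16 to P3, 35 were measured, of which 3 were at least 2-fold higher, 5 lower and 27 within 2-fold, with a median log2 difference of 0.06, against 6.57% higher, 15.6% lower and a median of -0.17 over all genes. From E18 to P3, 1 of 34 was higher and 1 lower (median 0.05), against 4.08% and 11.8% over all genes. From E16 to E18, 2 of 36 were higher and 4 lower (median 0.08), against 8.1% and 8.14%. Some genes within 2-fold by their brightest probe set passed it by another measured one. At P3, Fbxw7 was 2.77-fold higher and Adam17 2.1-fold lower than at E16 by such a probe set. Mib1 was 2.51-fold lower at P3 than at E18. The 11 genes that passed 2-fold in at least 1 comparison by their brightest probe sets are named below. The share of all genes that did so was not counted, so nothing is read from that number.

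In the nuclear complex, Rbpj, the DNA-binding partner of the Notch intracellular part, read 2421.6, 1538.9 and 1026.4 by its brightest probe set, 2.36-fold lower at P3 than at E16. Its other probe sets read 168.0, 397.2 and 199.2, and 138.1, 206.4 and 160.5, so they put Rbpj highest at E18 and P3 slightly above E16. No single direction holds for Rbpj. Ep300, an acetyltransferase and co-activator, read 406.7, 646.7 and 1107.5, 2.72-fold higher at P3 than at E16. Kat2b, another acetyltransferase, was 2.42-fold higher by its brightest probe set and 1.34-fold lower by a second one. Maml1, which encodes the Mastermind co-activator, read 675.5, 280.6 and 433.1, a log2 difference of -1.27 from E16 to E18. That call was lost without _s_at and _x_at probe sets (-0.59, a bound) and by the mean over probe sets (-0.93). The corepressor gene Ctbp1 read 1058.0, 665.0 and 447.4, 2.36-fold lower at P3 than at E16. After quantile normalization none of the 5 genes lower from E16 to P3 passed 2-fold, with log2 differences of -0.96 (Rbpj), -0.92 (Ctbp1), -0.92 (Dtx1), -0.73 (Dtx4) and -0.69 (Poglut1).

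The Deltex genes, which encode ubiquitin ligases that act on Notch, went both ways. Dtx1 read 620.6, 251.6 and 268.6, 2.31-fold lower at P3 than at E16. Dtx4 was 2.03-fold lower (623.1, 200.8 and 306.4), and 1.43-fold by another probe set. Dtx3 read 66.5, 234.5 and 269.8, at least 3.29-fold higher at P3, and Dtx2 was within 2-fold. Poglut1, which adds glucose to Notch, read 961.7, 442.2 and 471.3 and was 2.04-fold lower at P3. Neurl1a, a ubiquitin ligase of the ligands, passed 2-fold from E18 to P3 by its brightest probe set (101.9 against 217.2), where 3 others gave log2 differences of 0.03, -0.07 (a bound) and -0.15.

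Dner, an unusual ligand known from neurons, peaked on the E18 array. It read 269.9, 1084.9 and 205.2 by its brightest probe set and 182.1, 391.6 and 132.8 by the other. All 6 measured protease genes (Adam10, Adam17, Psen2, Ncstn, Aph1a, Psenen) were within 2-fold in the 3 comparisons by their brightest probe sets. By a second one, 1421859_at, Adam17 was 2.1-fold lower at P3 than at E16. Nrarp, a feedback target, read 642.5, 758.2 and 623.6, a span within 1.22-fold. Of the 6 further Hes and Hey genes, Hey2 reached the floor at E18 (86.4) and Hes2, Hes3, Hes5, Hes6 and Hes7 on no array.

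**Figure D3:**
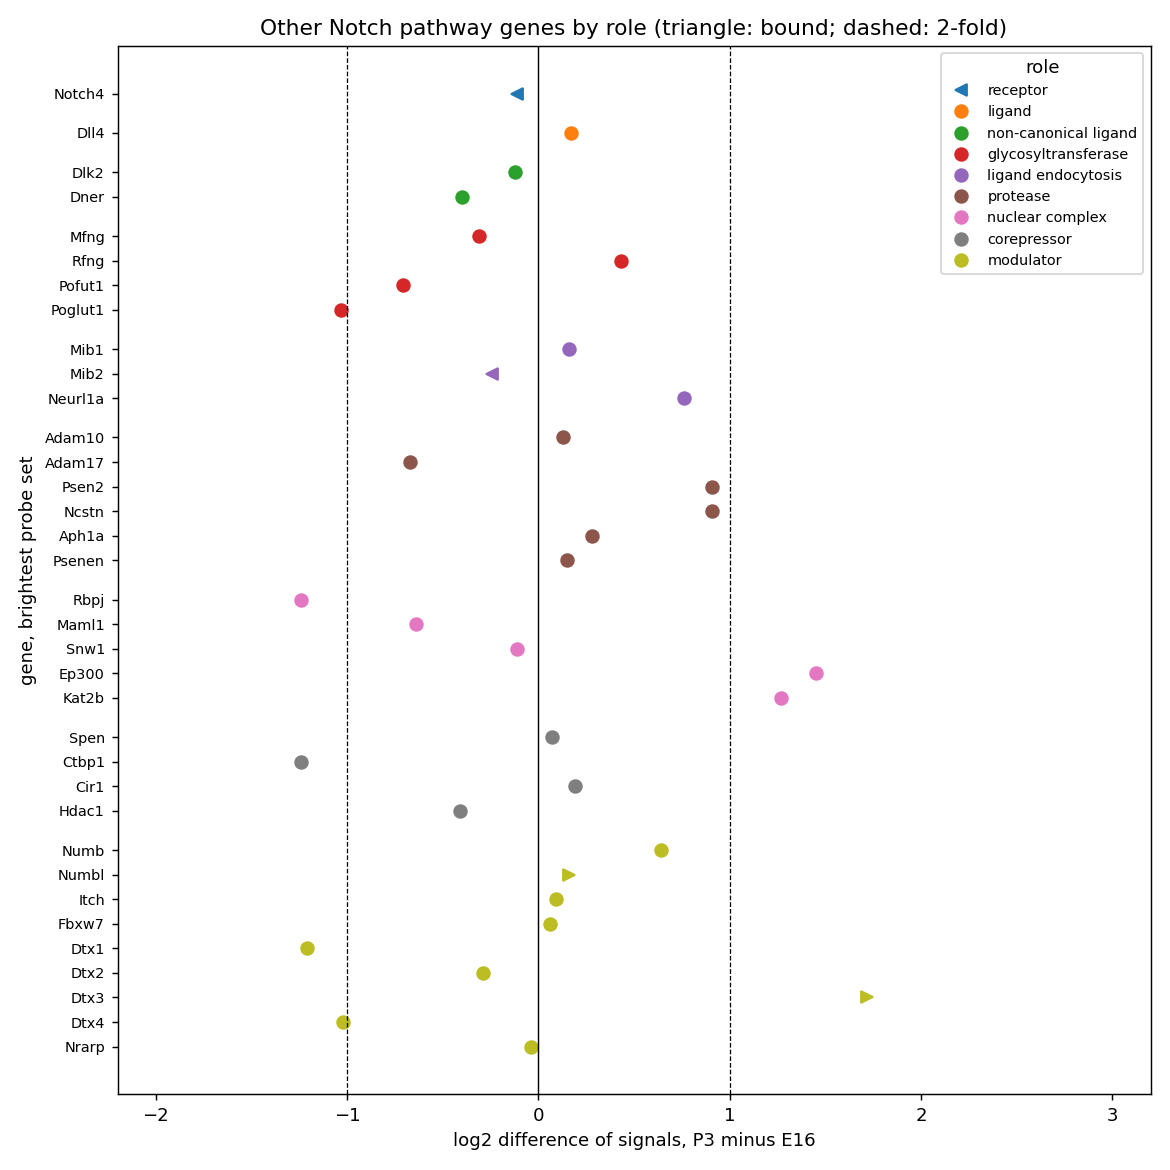
Log2 difference between P3 and E16 for the 35 other pathway genes measured, by role, each by its brightest probe set. Triangles are bounds and dashed lines mark 2-fold. Dtx3, Ep300 and Kat2b lie above 2-fold, and Rbpj, Ctbp1, Dtx1, Poglut1 and Dtx4 lie below it, with the other 27 between.

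Markers of the other cells that carry Notch genes moved over the same stages. In such bulk samples, more cells of a type and more RNA per cell cannot be told apart. Sums below are over brightest probe sets, whose recovered levels may be understated, and no listed marker was at 0 on any array. For the counts below, the shares over all genes were 6.57% higher and 15.6% lower from E16 to P3. They were 4.08% and 11.8% from E18 to P3, and 8.1% and 8.14% from E16 to E18. Mural markers, which bear on Notch3 and Heyl, summed to 5500, 5739 and 6790, so P3 was 1.23 times E16, and 1 of 7 measured, Rgs5 (358.9, 2163.0 and 1643.5), was 2-fold higher with 0 lower (median -0.22). For the step between E18 and P3, where Notch3 and Heyl differed, the full mural sum at P3 was 1.18 times that at E18. Abcc9 was the 1 marker of 7 that passed 2-fold in this step, upwards, and the median log2 difference was 0.15. Without Rgs5, left out after the data were seen, the sums were 5141, 3576 and 5147. E16 and P3 were then nearly level, and P3 was 1.44 times E18. Pdgfrb read 1421.2, 590.9 and 848.5 and Abcc9 1203.0, 996.1 and 2219.4, while Myh11 was under the floor on all arrays.

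Endothelial markers, which bear on Notch1 and Hey1, summed to 4397, 2148 and 2591. Of the 8 measured, 0 passed 2-fold upwards from E16 to P3 and 1, Kdr (2571.2, 1062.3 and 846.3), passed it downwards. Cdh5 read 196.9, 174.6 and 244.3, and Pecam1 and Tie1 were under the floor on all arrays. From E18 to P3, where Hey1 was 4.28-fold higher, 2 of 8 endothelial markers were at least 2-fold higher (Eng and Plvap) and 0 lower, with a median of 0.54, and their sum was 1.21 times as high. Without Kdr, left out after the data were seen, the sums were 1825, 1085 and 1745, so P3 was 1.61 times E18 and 0.956 times E16. The endothelial median of -0.13 between E16 and P3 became 0.04 after quantile normalization.

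Epithelial markers, which bear on Jag2, Lfng, Notch1 and Hes1, summed to 8203, 22641 and 4972. Against E16, 8 of 10 were higher at E18 by 2-fold or more, and at P3 all 10 were lower than at E18 by that much, as Krt5 shows (2068.6, 4821.4 and 752.2). Hes1, Dner, both Jag2 and both Notch2 probe sets, Notch1 by 1418633_at and Jag1 by 1421106_at were also highest at E18, by differing margins, whereas Lfng was lowest there. The part of the epithelium in the values of Hes1 and Jag2 was not tested. Ameloblast genes summed to 954, 3942 and 11307, so P3 was 11.9 times E16, with 5 of 5 measured higher, of which 1 reached the floor at E16 and the others could not come out lower.

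Macrophage markers summed to 1748, 3646 and 7151, with 5 of 7 measured past 2-fold upwards from E16 to P3 and 0 downwards (Csf1r read 1255.7, 2135.0 and 3542.4, and Aif1 was under the floor throughout). Only 3 macrophage markers reached the floor at E16, and the other measured ones could not come out lower. Odontoblast genes were higher at P3 than at E16 in 6 of 6, of which 2 reached the floor at E16 and the others could not come out lower. Cell cycle genes summed to 13040, 10701 and 2830, with 7 of 7 lower. Of 4 Schwann cell markers 2 were measured and 0 passed 2-fold from E16 to P3 (Sox10 read 234.3, 128.0 and 212.3). The odontoblast, ameloblast and macrophage sums were higher at P3 together with Dll1, Hey1, Notch3 and Heyl. These sums were at 2.09 to 7.44 times E16 at E18, but single markers, picked here after their values were seen, differed: Dspp read 41.9, 4191.1 and 19516.9, while Alpl read 288.8, 269.5 and 1060.1 and Col1a2 875.3, 969.7 and 5527.3. Alpl, Col1a2, Mmp20 (48.1, 87.5 and 2367.3) and C1qa (under the floor at E16 and E18, at 227.2 at P3), like the 4 Notch genes, were highest at P3, well above both embryonic arrays. Other genes of these lists took other courses: Dmp1 read 15.6, 3720.0 and 782.4, C1qb 79.6, 623.6 and 656.4, and Cd68 72.8, 118.3 and 104.2. The part of these cell types in the values of the 4 genes was not tested.

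**Figure D4:**
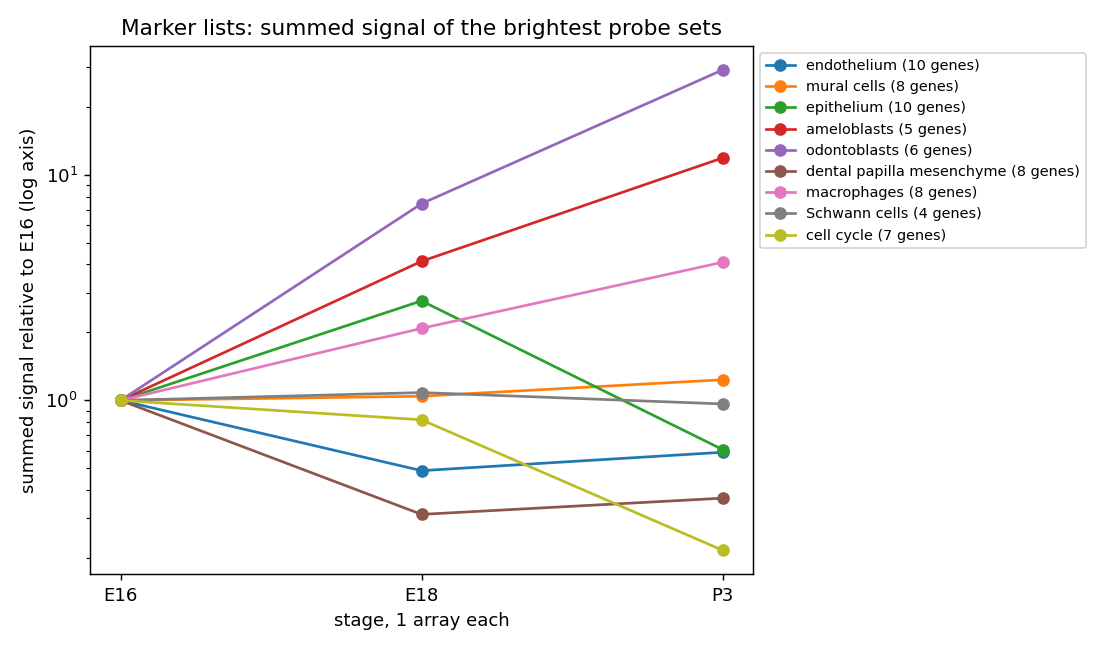
Summed signal of the brightest probe sets of each marker list relative to E16, on a log axis, with 1 array per stage. Odontoblast, ameloblast and macrophage sums are higher at E18 and again at P3, the epithelial sum peaks at E18 at 2.76 times E16, and endothelial and mural sums at P3 are 0.589 and 1.23 times E16 (0.956 without Kdr, and level with E16 without Rgs5).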

How the data were processed

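RNA of 3 pooled samples was measured on Affymetrix-type probe sets, and per the submitters' processing notes the authors used GCOS. The deposited values are ratios. In 90.4% of 45101 probe sets the middle value was 1 (tolerance 1e-06), and the others had steps that fit division by a fixed signal of 10. Scaling, centring and build: not given in the sources used here. Array step sizes in those other probe sets gave factors of 0.7177 (E16) and 1.0802 (E18) relative to P3. A signal was recovered as the smallest whole number of steps of 0.1 that fitted all 3 ratios within a relative 3e-07 and put the middle signal at 10 or more. It may be understated, never overstated. For 13 of 19 member probe sets under 0.01 chance solutions were expected. For the brightest probe sets the number was 1.0 for Notch2, 0.39 for Hey1, 0.2 for Notch3 and 0.05 for Jag1. It was 0.03 for Dll1 and 0.017 for Hes1, so the levels of these genes are the least sure. In 1 probe set no solution was found. The recovery was tested on simulated data built with the same steps, array factors and divisor. That test therefore cannot show whether the deposited values followed this scheme.

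A gene was called when its brightest probe set differed by at least 2-fold, with at least 1 array at or above the floor. No p-value was computed. Platform annotation gave 34945 probe sets 1 symbol, 932 several and 9160 none, leaving out 64 controls. The named genes are the 10 members, other pathway genes past 2-fold, and the 3 nearest patterns to the member of widest range. Members and lists were chosen with earlier results of these data known. A total of 8 alternatives were run (scaling, floor, probe sets, gene value, threshold), 1 of them added after the data were seen. Python 3.11.15 with NumPy 2.4.6 and pandas 2.3.3 was used.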

Additional observations from a re-analysis of the deposited data

How the results depend on the processing

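Dll1, Hey1 and Heyl stayed past 2-fold upwards at P3, against E16 and against E18, under all 8 alternatives run, and Notch3 under the 7 that measured it. Only the alternatives of scaling could change the values of Dll1, Hey1 and Notch3, each with a single measured probe set above every floor used. The 1.5-fold threshold changes no value. Without probe sets of the suffixes _s_at and _x_at Notch3 was not measured, and 3 members were higher and 1 lower in both P3 comparisons. Over all genes, 744 were then higher and 1854 lower of 11724 from E16 to P3. From E18 to P3 these counts were 468 and 1257 of 11637. The log2 difference from E16 to P3 ranged from 2.29 to 2.71 for Dll1, 1.91 to 2.23 for Hey1, 1.11 to 1.54 for Notch3 and 1.01 to 1.24 for Heyl. That of Jag2 was -0.82 as a bound with the floor at 164, where fewer signals are measured. With that floor 1 member passed 2-fold from E16 to E18 in place of 2, and 1 other pathway gene from E18 to P3. Over all genes, 740 were then higher and 745 lower of 9203 from E16 to E18. From E18 to P3, 318 were higher and 1171 lower of 9038. Setting the median difference of probe sets at or above the floor to 0, an alternative chosen after seeing the data, also left 1 member from E16 to E18, Hes1. Over all genes, 977 were then higher and 877 lower of 11481. From E16 to P3, 5 other pathway genes passed after quantile normalization (5 higher, 0 lower), and 5 by the mean over measured probe sets (2 higher, 3 lower), with 1 from E18 to P3. Over all genes, 1229 were higher and 1283 lower of 12188 from E16 to P3 after quantile normalization. By the mean, 656 were higher and 1499 lower of 12220 from E16 to P3. From E18 to P3 the mean gave 387 higher and 1036 lower of 12139. At 1.5-fold, 8 of 10 members passed from E16 to P3 (6 higher, 2 lower). Other pathway genes passing were 15 of 36 from E16 to E18, 10 of 34 from E18 to P3 and 15 of 35 from E16 to P3. Over all genes at that threshold, 2123 were higher and 2398 lower of 12034 from E16 to E18. The counts were 1361 and 3106 of 12115 from E18 to P3, and 1650 and 3660 of 12192 from E16 to P3. The cause of the changes after scaling was not tested. No paired analysis was possible because each stage has 1 array. With 3 arrays and signals of Lfng and Jag2 near the floor, small differences in these genes cannot be told from error.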
